A study of Mus musculus with 11 samples.

Results

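The 10 microRNA genes Mir132, Mir212, Mir760, Mir344, Mir344c, Mir344-2, Mir148b, Mir1936, Mir3083 and Mir6976 were followed across the binding sites of RFX1, RFX2 and RFX3 in cultured mouse ependymal cells, a multiciliated epithelium found along the ventricles of the brain. They are 10 of the 1228 microRNA genes that RefSeq places on the assembled chromosomes of the genome build GRCm38.p6. A peak was counted at a member when its summit, the position of strongest signal, lay within 10 kb of the gene, with 0 for a summit inside it. The genes were picked because they have such peaks, so the positions of these peaks are a description and no test was made on them. Of the 1228 genes, 196 had a summit of any RFX within 10 kb (16.0%), and the 10 genes described here are part of those 196.

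The peaks came from chromatin immunoprecipitation and sequencing of 11 samples. Each factor had 2 ChIP samples, made with an antibody to that factor, and 5 input samples held chromatin that was not immunoprecipitated (2 tied by their labels to RFX1, 2 to RFX2 and 1 to RFX3). All samples were wild type OF1 mouse cells differentiated ex vivo. The labels give the lateral walls of embryonic brain as their tissue, P0 as their age and no treatment, and they do not say whether the samples of a factor came from separate animals. The 2 RFX2 samples used different lots of the same commercial antibody. The authors deposited 1 list of reproducible peaks per factor, with its replicates already merged, so no value below has a replicate error. The lists held 7440 RFX1, 1250 RFX2 and 9318 RFX3 peaks, and the read depth behind them is unknown. Peak lists carry no expression values, so neither the cell identity nor the level of any microRNA could be checked in them.

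MicroRNAs are made from hairpin transcripts that Drosha with Dgcr8 and then Dicer1 cut to short mature strands. A mature strand guides Argonaute proteins to messenger RNAs mainly through its seed, bases 2 to 8 counted from its 5′ end, so microRNAs with the same seed are grouped as a family. RFX factors are winged-helix proteins that bind the X-box, a DNA element of inverted arms, and RFX2 and RFX3 are best known for acting on genes of the cilium.

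All 10 genes had a hairpin and at least 1 mature strand in the RefSeq sequences of GRCm38.p6. The strands below are shown because they share their seed with another member or with a relative counted further on; the seed is in capitals.
mmu-miR-132-3p: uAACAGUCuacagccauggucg
mmu-miR-212-3p: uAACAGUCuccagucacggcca
mmu-miR-344-3p: uGAUCUAGccaaagccugacugu
mmu-miR-344c-3p: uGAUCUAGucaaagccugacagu
mmu-miR-148b-3p: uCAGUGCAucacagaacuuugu
mmu-miR-148a-3p: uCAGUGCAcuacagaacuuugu
mmu-miR-152-3p: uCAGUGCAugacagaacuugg
The 3p strands of miR-132 and miR-212 share their seed with each other and with no other mature strand of the table. The same holds for miR-344-3p, which both Mir344 and Mir344-2 encode, and miR-344c-3p. The seed of miR-148b-3p is also that of miR-148a-3p and miR-152-3p, which come from genes that are not members. The seed of miR-760-3p is also that of miR-7239-3p, likewise from a gene that is not a member. The family of miR-148b is known for repressing the DNA methyltransferase gene Dnmt1, and miR-132 and miR-212 are known in neurons as microRNAs induced through the factor CREB that act on dendrites and synapses.

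RFX3 had a summit within 10 kb of all 10 genes, RFX1 of 8 and RFX2 of 4. Over all microRNA genes the shares were 13.1% for RFX3, 13.4% for RFX1 and 3.91% for RFX2; since the genes were chosen by these peaks, nothing is read from the gap. Mir132, Mir212, Mir3083 and Mir6976 had all 3 factors, as had 3.66% of all microRNA genes. Mir760, Mir344c, Mir344-2 and Mir1936 had RFX1 and RFX3, while Mir344 and Mir148b had RFX3 alone. The RFX3 list reached down to a −log10 q (the adjusted p-value of a peak on a −log10 scale) of 8.87. The RFX1 list stopped at 12.0 and that of RFX2 at 18.2. The RFX3 peaks at Mir344 (9.69) and Mir148b (11.3) scored below both of these ends. Absence from a list is therefore not read as absence of binding, which was not tested. Of the 1228 microRNA genes, 84 had RFX1 and RFX3, 32 had RFX3 alone and 32 had RFX1 alone, a class with no member here. The nearest summit lay within 1 kb of each of the 10 genes, against 2.85% of all microRNA genes (35 genes, these 10 among them). The genes were chosen by summit positions, so nothing is read from this gap either. In the direction of transcription, the nearest summit was inside the hairpin at 1 gene, upstream at 5 and downstream at 4. Sides were not counted for the other microRNA genes, so nothing is read from this split. Mir344, Mir344c and Mir344-2, copies of similar sequence, are all among the upstream genes, and Mir132 and Mir212 share their nearest peaks.

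**Figure D1:**
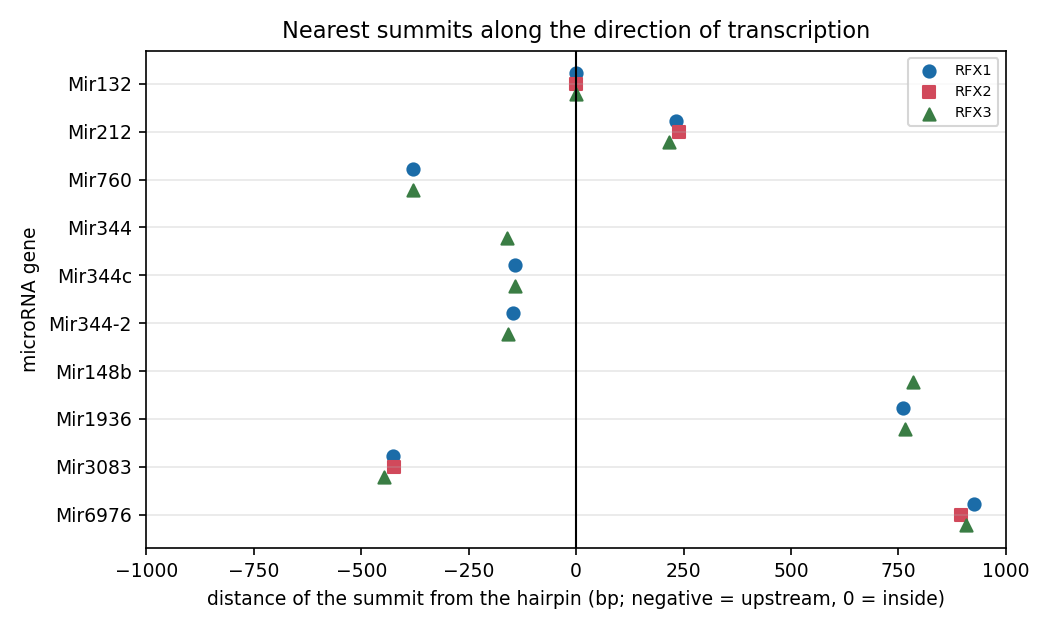
Distance in bp from each microRNA hairpin to the RFX1, RFX2 and RFX3 summits within 1 kb of it, along the direction of transcription (negative values are upstream, 0 is inside the hairpin); points of 1 gene are set apart vertically by factor. All 3 factors sit inside Mir132, and the summits at Mir344, Mir344c and Mir344-2 fall between 142 and 161 bp upstream.

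The summits of all 3 factors lay inside the Mir132 hairpin itself, on chromosome 11 at 75173682–75173747. Of the 1228 microRNA genes, 3 had any RFX summit inside the gene, and Mir132 was the 1 gene with all 3 factors inside. The RFX1 summit was at 75173711, the RFX2 summit at 75173717 and the RFX3 summit at 75173694. Gaps of 6 bp between RFX1 and RFX2, 17 bp between RFX1 and RFX3 and 23 bp between RFX2 and RFX3 separated them, beside medians of 12, 16 and 18 bp over all regions of the series in which each of the pair had 1 peak. The RFX1 peak was 437 bp wide, the RFX2 peak 473 bp and the RFX3 peak 358 bp, and each covered the whole hairpin of Mir132.

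This site was strong within the RFX1 and RFX3 lists. RFX1 had a −log10 q of 92.3, the peak caller's adjusted p-value on a −log10 scale, and ranked 735 of 7440. RFX3 had 79.5 and ranked 527 of 9318. RFX2 had 45.7 and ranked 295 of 1250. The fold enrichment, the peak caller's ratio of ChIP signal to background, was 9.63 (RFX1), 10.6 (RFX2) and 6.74 (RFX3). Set against their own lists, these folds stood lower than the −log10 q did. The RFX3 peak was at percentile 94.4 of its list by −log10 q and at 38.5 by fold. Values of different lists were made separately, so a percentile places a peak within its own list only.

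The Mir132 hairpin is the 1 member sequence that holds the summits, and its letters are shown for that reason, 5′ to 3′ on the plus strand (chr11:75173682-75173747). Capitals mark each copy of the X-box arm GTTNCC read on either strand.
Mir132 hairpin: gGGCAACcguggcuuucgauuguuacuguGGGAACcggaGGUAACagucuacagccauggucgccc
All 3 copies are on the minus strand of this window, and the first of them, at bases 2 to 7, is GTTGCC, the 6-letter arm searched for first. GTTGCC is a case of GTTNCC, so this match counts under both. The middle copy covers 75173711–75173716, so the RFX1 summit is its first base and the RFX2 summit is the base after its end. Among 1005 microRNA hairpins, 3.88% held GTTGCC and 14.6% held GTTNCC on either strand. No other member hairpin held GTTGCC, and that of Mir760 held GTTNCC 1 time. A full X-box (GTTNCC and GGNAAC with 0 to 3 bases between them) was not found in the Mir132 hairpin, nor was the CREB element TGACGTCA. A match describes letters and is not evidence of a bound site.

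Mir212, at 75173388–75173478, stands upstream of Mir132 on the same strand and shares its peaks. The RFX1, RFX2 and RFX3 summits were 233, 239 and 216 bp downstream of the Mir212 hairpin, and none of the 3 peaks reached it. The hairpins of Mir132 and Mir212 matched at 47 of the 66 bases of the shorter one (71.2%). Neither lies inside another annotated gene. The nearest end of a protein-coding gene was that of Ovca2, 2232 bp from the middle summit.

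A weaker site lay 3231 bp upstream of Mir132 for RFX1 and 3163 bp for RFX3, at the start of Hic1, which encodes a transcriptional repressor. RFX1 had a −log10 q of 19.2 and a fold of 4.85 there. RFX3 had 14.1 and 3.17. RFX2 had no peak there. These peaks were at percentiles 28.9 and 31.6 of their lists by −log10 q, so most peaks of either list scored above them. The middle of both summits was 230 bp from the annotated end of Hic1 that is its start, which makes this the 1 member region of 12 within 1 kb of a protein-coding gene end. Whether the site belongs to Hic1, to the microRNA pair or to both cannot be told apart from distance.

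The Hic1 promoter window (250 bases before the start to 50 after it) held the RFX1 summit, at 75170451. The stretch around it is shown because it carries a complete X-box by the degenerate consensus; it is on the minus strand (chr11:75170402-75170501), its base 51 is the summit, and capitals mark GTTNCC on either strand and the X-box.
Hic1 promoter stretch: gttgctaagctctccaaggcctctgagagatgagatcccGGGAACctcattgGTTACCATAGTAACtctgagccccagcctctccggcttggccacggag
The degenerate match spans 75170436–75170449, and its middle is 8.5 bp from the RFX1 summit and 76.5 bp from the RFX3 summit. It was looked for after the letters were seen. The Mir132 hairpin held no match to the same consensus. Of 32817 promoter windows of this length, 1.53% held the degenerate consensus. Of 1279 windows with an RFX1 summit, 16.7% held it. The window had no GTTGCC, which 12.5% of all windows had and 46.2% of those with an RFX1 summit.

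The 3 Mir344 genes had their summits at nearly the same place, just upstream of the hairpin. These genes belong to a cluster of 13 copies over 402 kb of chromosome 7, all on the minus strand. Mir344c (61837311–61837402) had the RFX1 summit 142 bp and the RFX3 summit 143 bp upstream. Mir344-2 (61940027–61940106) had them at 148 and 159 bp. Mir344 (61877770–61877864) had RFX3 alone, at 161 bp. All 5 distances therefore fall between 142 and 161 bp.

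Their peaks differed widely in strength. At Mir344c, RFX1 had a −log10 q of 67.4 and a fold of 18.7, and RFX3 had 31.5 and 14.1. At Mir344-2, RFX1 had 22.4 and 8.69, and RFX3 had 12.9 and 8.23. At Mir344, RFX3 had 9.69 and 7.06. Mir344c was thus the strongest of the 3 in both lists, and its RFX1 fold was at percentile 97.0 of the list, the highest fold percentile of all peaks at the 10 genes. The Mir344 peak was at percentile 7.10 of its list by −log10 q, and 230 RFX3 peaks, this peak included, carry exactly its −log10 q and its fold. The nearest RFX1 summit to Mir344 was 40226 bp away, which is the summit at Mir344c. No RFX2 summit lay within 10 kb of any of the 13 copies, and the nearest was between 1840128 and 2242246 bp from them.

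**Figure D2:**
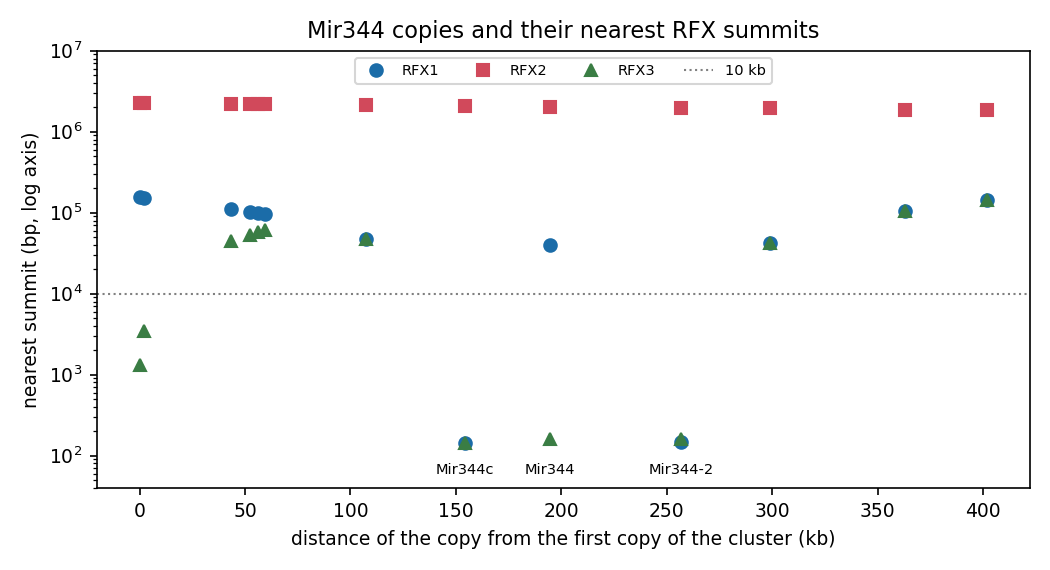
Distance in bp (log axis) from each of the 13 Mir344 copies to its nearest RFX1, RFX2 and RFX3 summit, against the position of the copy in kb from the first copy; the dotted line marks 10 kb. The 3 named genes have an RFX3 summit 143 to 161 bp away. Mir344c and Mir344-2 also have an RFX1 summit, at 142 and 148 bp, while the nearest to Mir344 is at 40226 bp. The first 2 copies share an RFX3 summit at 1310 and 3458 bp.

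The copies share sequence, which limits how firmly reads can be placed. The hairpins of Mir344 and Mir344-2 matched at 78 of 80 bases (97.5%), and Mir344c matched Mir344 at 76 of 92 (82.6%). No source used here says how reads that match several copies were treated, so peaks at these 3 genes are uncertain. Of the 10 other copies, none had an RFX1 summit within 10 kb and 2 had an RFX3 summit, Mir344d-1 at 1310 bp and Mir344d-2 at 3458 bp, with the same values as the Mir344 peak. Among the other copies, identity to Mir344 reached 87.3% at Mir344b (55 of the 63 bases of its shorter hairpin), which had no summit closer than 46963 bp. The summits lie outside the hairpins, and identity of the copies there was not measured. Mir344 and Mir344c lie within the long noncoding RNA gene A230057D06Rik and Mir344-2 within the pseudogene Gm3257. The nearest protein-coding gene to each of their sites was Ndn, the imprinted gene for necdin, between 408018 and 510733 bp away.

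Mir6976 had the highest RFX1 and RFX3 −log10 q of the 10 genes, while Mir344c had the highest folds in both lists. The gene lies within Srf, which encodes serum response factor, on chromosome 17 at 46553827–46553889. RFX1 had a −log10 q of 137.8 and a fold of 13.5, and ranked 240. RFX3 had 98.2 and 9.78, and ranked 290. RFX2 had 24.2 and 6.57, and ranked 876, at percentile 30.0 by −log10 q and 5.60 by fold. The RFX2 peak was therefore low in its list where the other 2 were high. These places belong to lists of different length and lowest −log10 q, so they do not compare binding between factors. The summits lay 926 (RFX1), 896 (RFX2) and 908 bp (RFX3) downstream of the hairpin, within 30 bp of each other. They were inside Srf, 5348 bp from its nearer annotated end and 3243 bp from a listed start. The RFX1 peak was the widest at any of the genes, with 534 bp.

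Mir3083 was the gene with the most sites. Its nearest site had RFX1, RFX2 and RFX3 summits 427, 425 and 448 bp upstream. RFX1 had a −log10 q of 52.7 there, RFX2 20.7 and RFX3 86.5, and their folds were 9.72, 7.96 and 9.25. RFX3 ranked 429 of 9318 and RFX2 ranked 1071 of 1250, each a place within its own list only. A second site, 3460 bp (RFX1) and 3449 bp (RFX3) upstream, had a −log10 q of 23.3 for RFX1 and 44.9 for RFX3. RFX3 alone had a further peak 1842 bp upstream, with 30.7 and 7.08. RefSeq also lists a microRNA gene, Gm51291, inside the coordinates of Mir3083, and it has the same sites.

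Mir760 and Mir1936 had RFX1 and RFX3 summits 1 and 3 bp apart. At Mir760, on chromosome 3 at 122293585–122293703, the RFX1 and RFX3 summits were 380 and 379 bp upstream. RFX1 had a −log10 q of 19.3 and a fold of 5.60, and RFX3 had 23.0 and 3.83. The fold of RFX3 was at percentile 8.30 of its list while its −log10 q was at 56.2. At Mir1936, within the inositol kinase gene Itpk1 on chromosome 12 at 102684928–102685020, the summits were 762 and 765 bp downstream. RFX1 had 30.5 and 5.27, and RFX3 had 36.7 and 5.33. The −log10 q of both was above the median of its list, and the fold of both was below it. The Itpk1 end nearest to the Mir1936 site was 20705 bp away.

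Mir148b had the lowest RFX3 −log10 q at any nearest site apart from Mir344. It lies within Copz1, the gene of a coatomer subunit, on chromosome 15 at 103285125–103285221. An RFX3 summit was 783 bp downstream. Its −log10 q was 11.3 and its fold 4.92, at percentiles 16.7 and 18.0 of the list. The next summits, just outside the 10 kb window, were 12474 bp away for RFX3, with a −log10 q of 61.4, and 12477 bp away for RFX1, with 98.3. The sites just outside the window of Mir148b were therefore stronger than the 1 inside it. For the other genes, the first summit beyond the window of any factor was at least 40225 bp away, and the farthest summit inside it was at 3460 bp, at Mir3083. The seed relatives of miR-148b had no summit in the window: the nearest was 11758 bp from Mir152 (RFX1 and RFX3) and 16891 bp from Mir148a (RFX3).

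Merging overlapping peaks gave 12 regions at the 10 genes, which hold 24 distinct peaks, 9 of RFX1, 3 of RFX2 and 12 of RFX3. All 3 factors held 3 regions, beside 10.9% of the regions of the whole series. RFX1 with RFX3 held 6 regions, and RFX3 alone held 3. Of the regions with RFX3 alone, those at Mir344 and Mir148b scored below the lowest −log10 q of the RFX1 and RFX2 lists. The region at Mir3083 (30.7) scored above it. Every RFX1 peak at the genes overlapped an RFX3 peak. Such sharing is common in these lists and is not read as a trait of the 10 genes. Over the whole series, 5507 of 11236 regions held 1 RFX1 and 1 RFX3 peak, with or without RFX2, beside 7440 RFX1 peaks in all. By −log10 q, 5 of the 9 RFX1 peaks, 1 of the 3 RFX2 peaks and 8 of the 12 RFX3 peaks were above the median of their list (29.1, 30.1 and 19.9). That is 14 of 24 peaks, beside 49.9% of all peaks of the 3 lists, which is a share near the background. Mir132 and Mir212 share their peaks, which were counted 1 time.

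**Figure D3:**
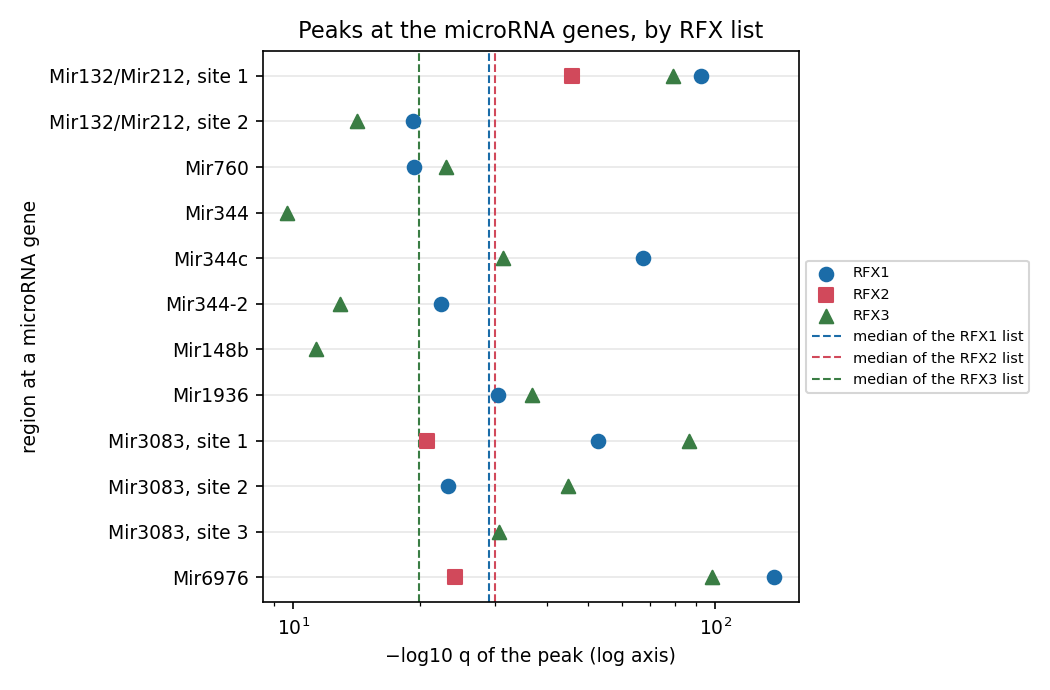
The −log10 q (log axis) of each RFX1, RFX2 and RFX3 peak in the 12 regions at the microRNA genes; dashed lines mark the median of each full list, and sites of a gene are numbered in the order of the text. Mir6976 and the first sites of Mir132/Mir212 and Mir3083 lead in RFX1 or RFX3, and Mir344 is lowest at 9.69.

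By fold, 10 of the 24 peaks were above the median of their list, against 14 by −log10 q. The 5 peaks at Mir344, Mir344c and Mir344-2 each stood higher in their list by fold than by −log10 q, as did RFX2 at Mir3083 and RFX3 at Mir148b, and every other peak stood lower. Their RFX3 peaks were at percentiles 44.6, 88.8 and 60.3 by fold and at 7.10, 69.2 and 26.4 by −log10 q, in the order Mir344, Mir344c and Mir344-2. The widths of these 3 peaks were 158, 301 and 225 bp, beside a median of 256 bp for the list.

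**Figure D4:**
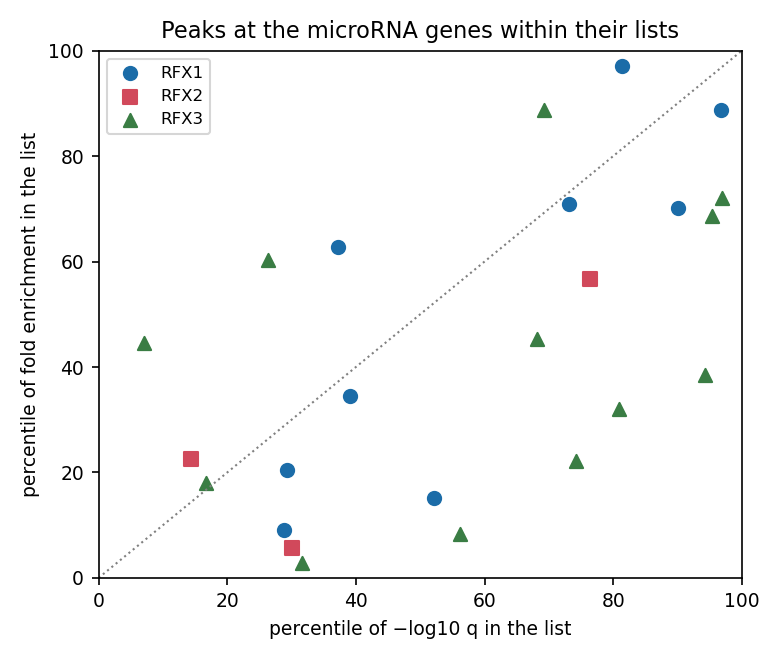
Percentile of each of the 24 peaks at the microRNA genes within its own list, by −log10 q (horizontal) and by fold enrichment (vertical), with a dotted line of equal percentiles. Points above the line include the 5 peaks at the Mir344 genes; points far below it include RFX3 at Mir132 (94.4 against 38.5) and at Mir760 (56.2 against 8.30).

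The genes most like Mir132, Mir212, Mir3083 and Mir6976, taken as other microRNA genes with all 3 factors within 10 kb and the shortest distance to a summit, were drawn from 41 such genes. They were Mir92b, Gm51291, Mir3098, Mir7045 and Mir425. Mir92b had summits of RFX1, RFX2 and RFX3 at 248, 257 and 255 bp, with −log10 q of 168.0, 132.9 and 128.7. Each of these was above the highest value of the same list at the 10 genes (137.8, 45.7 and 98.2). Mir3098 had them at 659, 660 and 641 bp, Mir7045 at 1033, 1033 and 1016 bp and Mir425 at 1052, 1041 and 1045 bp. In all, 34 microRNA genes, these 10 among them, had a summit as near as that of Mir6976 or nearer. The first genes beyond the window were Mir27a at 10101 bp, Mir135b at 10197 bp and Mir365-1 at 10239 bp.

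Other microRNAs with known roles in ciliated or neural cells were counted in the same way. Of 11 microRNA genes tied to multiciliogenesis, RFX1 had a summit within 10 kb of 6, RFX3 of 5 and RFX2 of 3, beside 13.4%, 13.1% and 3.91% of all microRNA genes. Neighbouring genes share summits, so these are not counts of separate sites and nothing is read from the gap. Mir34b and Mir34c have the same nearest RFX1 and RFX3 summits, and the 3 genes with RFX2 share 1 RFX2 summit. Mir200a, Mir200b and Mir429, which stand together, shared a strong site 3083 to 4864 bp away with all 3 factors and a −log10 q of 197.0, 87.4 and 173.2 for RFX1, RFX2 and RFX3. Mir34c, whose family acts in the formation of motile cilia, had an RFX1 summit 8 bp from its end, with a low −log10 q of 15.1. None of the 3 Mir449 genes had a summit within 10 kb. Mir200c and Mir141 had none there either, with the nearest summit, of RFX3, at 17842 and 17434 bp. Of 18 neural and glial microRNA genes, RFX1 was near 4, RFX3 near 7 and RFX2 near 1, Mir9-3, at 1046 bp, to be read beside the same 13.4%, 13.1% and 3.91%. The relatives of the members, the 10 other Mir344 copies with Mir148a and Mir152, numbered 12, of which RFX3 was near 2 and RFX1 and RFX2 near 0. Of 10 protein-coding genes of microRNA biogenesis, RFX1 had a summit inside or within 10 kb of 5 (Drosha, Xpo5, Dicer1, Tarbp2 and Ago2), RFX3 of 3 and RFX2 of 1, beside 24.9%, 25.3% and 5.93% of all protein-coding genes (29.8% for any of the factors, against 5 of these 10). The Tarbp2 site was strongest by RFX1 −log10 q, at 74.6, and lay 5291 bp from the gene. At Drosha, Dicer1 and Ago2 the strongest RFX1 summit inside the gene was 22336, 20124 and 35758 bp from the nearer gene end. The RFX1 peak in Dicer1 was among the weakest of its list, with a −log10 q of 12.2 and rank 7399 of 7440.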

How the data were processed

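ChIP-seq of RFX1, RFX2 and RFX3 in mouse ependymal cells was used as 3 deposited lists of reproducible peaks, 1 per factor, replicates merged by the authors. Per the submitters' processing notes, the tools were Bowtie 0.12.7, MACS2 2.0.10.20130520 and CASAVA 1.8.2, and the build was GRCm38. No source used here gives their roles or the rule that made a peak reproducible. Deposited values are the fold enrichment (a ratio), the −log10 q-value, the −log10 p-value (not used), the summit offset and a score, which equalled the whole part of 10 times −log10 q in all peaks. Depth is unknown.

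Distances, regions (peaks sharing at least 1 bp), ranks, percentiles, motif matches and end-gap-free hairpin alignments were computed with Python 3.11.15, pandas 2.3.3 and Biopython 1.88; distance code was tested on simulated data. Gene coordinates and sequences are from RefSeq GRCm38.p6. Genes named are the 10 members, the 5 most like genes with all 3 factors, the 3 nearest outside the window and 4 fixed lists (51 genes, all matched). Members and lists were chosen with earlier results of these data known. No test was made, because the members were chosen by these peaks. Not every annotation of the members is reported here.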

Additional observations from a re-analysis of the deposited data

How the results depend on the processing

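Of 61 recomputed values, 41 stayed within 1.5 times the count, or within the 95% exact interval of the share (counting of genes only), and 20 moved. The number of the 10 genes with each factor was the same with windows of 5 and 1 kb, and with 20 kb RFX1 also reached Mir148b (9 genes). With the better 50% of each list, RFX2 and all 3 factors were each at 2 genes, Mir132 and Mir212, which share 1 site. RFX1 was then at 6 genes and RFX3 at 7. With the best 1250 peaks per list, RFX1 was at 3 genes and RFX3 at 4, and both counts include Mir132 and Mir212 with their shared site. A fold of at least 4 left RFX3 at 9 genes. The share of all microRNA genes near RFX1, RFX2 and RFX3 was 7.33%, 2.28% and 6.76% at 5 kb, 2.52%, 0.570% and 1.95% at 1 kb, 22.6%, 6.03% and 22.0% at 20 kb, and 8.55%, 2.12% and 8.47% with the better 50%. It was 3.58% for RFX1 and 3.34% for RFX3 with the best 1250 peaks, and 10.3% for RFX3 with a fold of at least 4. Fewer peaks or other windows give these changes by construction. Of the 2 regions with sequence at the summit, 1 held GTTGCC, 2 held GTTNCC and 1, by an alternative chosen after seeing the data, held the degenerate X-box. Sequence around the other summits was not used here, so the narrower search window was not run. No paired analysis was possible because each list merges its replicates, and for the same reason no replicate could be left out.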
